A study of Mus musculus with 24 samples.

Results

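The collagen genes of the mouse quadriceps were followed across a dystrophic mouse line, its gene-edited counterpart and wild-type mice. Members were all rows of both deposited count tables whose symbol is Col, a number, the letter a and a number, which gave 44 genes of the 24062 gene symbols in each table. They were sorted by the known assembly of their chains into 11 fibrillar collagens, 8 basement membrane collagens and 25 other collagens. RNA came from whole quadriceps of C57BL/6 mice, and 24 libraries of polyadenylated RNA fell into 9 groups. Corrected mice were delEx44 animals injected into the peritoneum on postnatal day 4 with adeno-associated virus 9 (AAV9) carrying a guide RNA and AAV9 carrying the SpCas9 nuclease. The delEx44 line is a mouse model of Duchenne muscular dystrophy that lacks exon 44 of Dmd, the gene of the membrane-linked protein dystrophin, and the corrected animals carry the same deletion. WT mice had an intact Dmd gene. The 3 sedentary groups at 4 weeks of age were corrected, delEx44 and WT with 3 libraries each. The 3 groups taken at 8 weeks after a month of downhill running (15 degrees of decline, 12 m per min, every other day) held 2 libraries each, again corrected, delEx44 and WT. The 3 sedentary groups at 18 months held 3 libraries each in the same order. Corrected mice of the 4-week and run groups received 8e13 vector genomes per kg of each virus, with the guide in a self-complementary vector. Corrected mice of the 18-month group received 2.5e14 vector genomes per kg of a single-stranded guide vector and 5e13 of the SpCas9 vector, so age and vector dose cannot be told apart in them. The run groups are also older than the 4-week groups, so effects of running and of age coincide. The labels do not name the promoters that drive the guide and the nuclease.

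Collagens are secreted proteins whose chains wind around each other into a rope-like helix. Fibrillar collagens (types I, II, III, V, XI, XXIV and XXVII) build the fibres of tendon, cartilage and the sheets of connective tissue between muscle fibres, and in dystrophic muscle their build-up is the hallmark of fibrosis. Basement membrane collagens form the sheet that encloses each muscle fibre and each vessel: type IV chains make its network, and types XV and XVIII are proteoglycan-like collagens bound to it. The other members include the beaded filaments of type VI, the short network of types VIII and X, the fibril-associated types IX, XII, XIV, XVI, XIX, XX and XXII, and the membrane-spanning types XIII, XVII, XXIII and XXV.

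Sequences at the gene starts are shown for members whose levels moved together or in opposite directions in the results, from the RefSeq promoter windows of build GRCm38.p6 (250 bases before to 50 bases after the gene start), which held entries for 35 of the 44 members. Col4a1 and Col4a2 lie head to head, and the capitals mark the 78 bases that the windows at chr8:11312777-11313076 (minus strand) and chr8:11312555-11312854 (plus strand) share.
Col4a1: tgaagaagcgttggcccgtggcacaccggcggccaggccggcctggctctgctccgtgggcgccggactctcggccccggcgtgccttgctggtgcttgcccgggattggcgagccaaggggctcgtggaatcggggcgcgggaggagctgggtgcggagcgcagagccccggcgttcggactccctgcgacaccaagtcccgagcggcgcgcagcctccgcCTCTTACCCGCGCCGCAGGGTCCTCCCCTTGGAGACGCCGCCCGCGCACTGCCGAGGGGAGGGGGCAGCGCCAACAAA
Col4a2: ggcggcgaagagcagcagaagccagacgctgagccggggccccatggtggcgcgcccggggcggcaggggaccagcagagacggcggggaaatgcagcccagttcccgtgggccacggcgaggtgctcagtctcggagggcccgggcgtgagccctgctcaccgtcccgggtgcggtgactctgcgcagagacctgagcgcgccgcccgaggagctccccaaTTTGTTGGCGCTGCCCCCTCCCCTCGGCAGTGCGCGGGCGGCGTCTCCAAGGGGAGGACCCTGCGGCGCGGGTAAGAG
Col4a4 and Col4a3 form another head-to-head pair. In the Col4a4 window at chr1:82586800-82587099 (minus strand) the capitals mark the 71 bases between the annotated starts of Col4a4 and Col4a3.
Col4a4: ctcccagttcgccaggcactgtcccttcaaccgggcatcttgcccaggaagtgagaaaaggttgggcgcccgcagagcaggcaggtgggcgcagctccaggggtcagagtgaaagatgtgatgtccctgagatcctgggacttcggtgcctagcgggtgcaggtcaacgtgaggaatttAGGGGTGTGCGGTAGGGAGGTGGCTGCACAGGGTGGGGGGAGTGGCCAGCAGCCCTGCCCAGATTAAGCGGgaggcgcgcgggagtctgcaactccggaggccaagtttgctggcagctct
For the fibrillar pair whose response differed at 4 weeks, capitals mark exact matches, on either strand and with no overlap, to 3 short promoter motifs, the CCAAT box, the TATA box searched as TATAAA and the GC box searched as GGGCGG. The Col1a2 window at chr6:4505368-4505667 (plus strand) held 2 matches to CCAAT and 2 to GGGCGG, and the Col3a1 window at chr1:45311288-45311587 (plus strand) held 1 match to TATAAA.
Col1a2: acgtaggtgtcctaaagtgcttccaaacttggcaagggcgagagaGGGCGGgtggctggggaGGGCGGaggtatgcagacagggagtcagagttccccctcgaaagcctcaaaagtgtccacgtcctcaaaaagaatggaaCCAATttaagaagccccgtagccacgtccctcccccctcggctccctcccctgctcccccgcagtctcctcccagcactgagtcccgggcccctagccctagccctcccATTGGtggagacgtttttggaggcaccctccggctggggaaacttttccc
Col3a1: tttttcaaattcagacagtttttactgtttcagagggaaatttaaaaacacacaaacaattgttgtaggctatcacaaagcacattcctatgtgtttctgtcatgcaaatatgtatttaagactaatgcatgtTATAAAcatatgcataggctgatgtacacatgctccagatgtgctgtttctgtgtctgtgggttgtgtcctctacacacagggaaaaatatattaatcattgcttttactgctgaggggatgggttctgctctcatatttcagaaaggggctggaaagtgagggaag
Among 32851 windows of all genes, 37.4% held CCAAT, 13.6% held TATAAA and 35.7% held GGGCGG, and the 38 collagen windows (some members have more than 1) held them in 13, 5 and 23 cases. A match describes letters in these windows only.

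Gene-assigned reads came to 30552867 to 38090522 per library in the 4-week and run table and to 23125930 to 31254175 in the 18-month table. Dmd, the mutated gene, was lowest in delEx44 libraries at each stage with corrected libraries between delEx44 and WT. At 4 weeks it measured 155 to 172 CPM in corrected, 36.1 to 41.8 CPM in delEx44 and 204 to 239.6 CPM in WT muscle. After the run it measured 88.8 to 95.5 CPM in corrected, 40.7 to 41.8 CPM in delEx44 and 148 to 159.9 CPM in WT muscle, and at 18 months 195 to 304 CPM in corrected, 84.2 to 86.7 CPM in delEx44 and 337 to 425 CPM in WT muscle. CPM is the usual count per 1e6 reads after TMM scaling, and the tables of the younger and the 18-month libraries were scaled separately, so no level is compared between them. Some libraries stood apart. WT library 3 at 4 weeks carried cartilage and bone marker RNA at a summed 184 CPM, against 47.5 and 37.2 CPM in the other WT libraries of that age, and red cell and neutrophil marker RNA at 243 CPM, against 0.472 and 0.758 CPM. Red cell and neutrophil markers also summed to 61.0 to 205 CPM in the 6 run libraries. The bone gene Ibsp had 3.29 to 14.8 CPM in these 6 libraries. It had 0 to 1.68 CPM in the 4-week libraries other than WT library 3. Corrected library 3 at 18 months had macrophage markers at 678 CPM, within the 630.0 to 708 CPM of the delEx44 libraries of that age, and the other corrected libraries of that age had 479.7 and 228 CPM. Tissue markers moved with genotype: the 6 skeletal muscle fibre markers summed to 67960 to 86620 CPM in delEx44 and 151500 to 169900 CPM in WT muscle at 4 weeks, and 43650 to 54220 CPM in delEx44 and 106800 to 116200 CPM in WT muscle at 18 months. After the run they summed to 107100 to 119500 CPM in delEx44 and 136700 to 141300 CPM in WT muscle. By the test described below 5 of the 6 were lower in delEx44 at 4 weeks and at 18 months, and none after the run. In bulk muscle, fewer cells of a type and less RNA per cell cannot be told apart. The labels number the libraries without saying that each came from a separate mouse, so p-values measure the spread between these libraries.

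Collagen transcripts took 1.195% ± 0.139 in corrected, 1.88% ± 0.213 in delEx44 and 1.18% ± 0.136 in WT muscle (SD) of gene-assigned counts at 4 weeks, 0.4803% ± 0.132 in corrected, 0.768% ± 0.115 in delEx44 and 0.4004% ± 0.0402 in WT muscle (SD) after the run, and 0.206% ± 0.0306 in corrected, 0.414% ± 0.0470 in delEx44 and 0.189% ± 0.00567 in WT muscle (SD) at 18 months. Fibrillar collagens supplied most of this at 4 weeks, with 0.864% ± 0.129 in corrected, 1.37% ± 0.157 in delEx44 and 0.873% ± 0.135 in WT muscle (SD). Basement membrane collagens contributed 0.168% ± 0.0134 in corrected, 0.221% ± 0.0282 in delEx44 and 0.151% ± 0.0127 in WT muscle (SD) at that age, and 0.0617% ± 0.00605 in corrected, 0.0857% ± 0.00455 in delEx44 and 0.0583% ± 0.000687 in WT muscle (SD) at 18 months. The other collagens took 0.164% ± 0.00987 in corrected, 0.288% ± 0.0327 in delEx44 and 0.1595% ± 0.0111 in WT muscle (SD) at 4 weeks and 0.0479% ± 0.00895 in corrected, 0.101% ± 0.00783 in delEx44 and 0.0448% ± 0.00161 in WT muscle (SD) at 18 months. The delEx44 mean was the highest of its stage in every class shown. These shares carry no scaling between libraries. TMM-scaled fibrillar sums at 4 weeks overlapped, at 10539 to 12428 CPM in delEx44 and 8854.5 to 11233 CPM in WT muscle. Basement membrane sums overlapped too, at 1733.1 to 2124.8 CPM in delEx44 and 1508.1 to 1803.6 CPM in WT muscle. Sums of the other collagens at 4 weeks, and of every class at both later stages, were higher in every delEx44 than in every WT library.

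**Figure D1:**
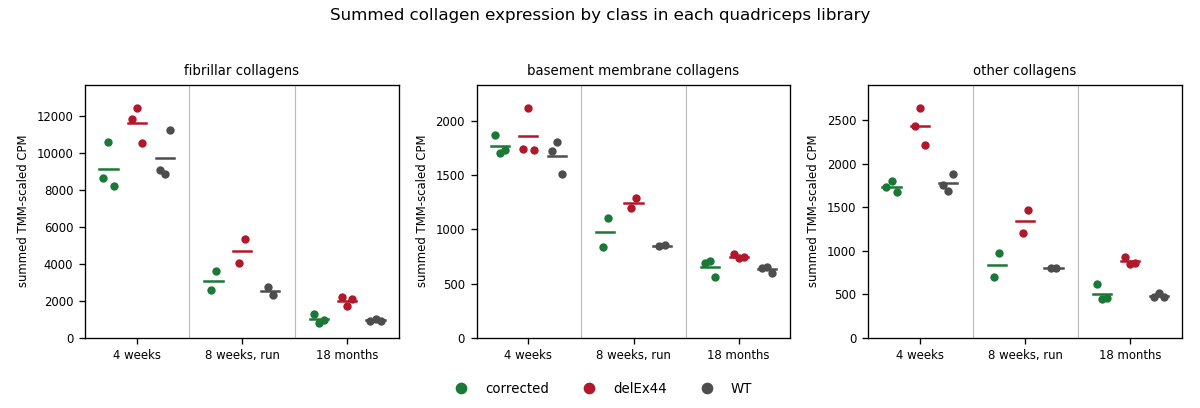
Summed TMM-scaled CPM (vertical axes, from 0) of fibrillar, basement membrane and other collagens in each library at 4 weeks, at 8 weeks after the run and at 18 months, with corrected, delEx44 and WT side by side; the 18-month table was scaled separately. Points are libraries and lines are group means; the other collagens at 4 weeks sum to 2429.5, 2645 and 2219.8 CPM in delEx44 against 1759, 1684 and 1881 CPM in WT muscle.

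Transcript levels per kb of merged exons ranked the members within each group. At 4 weeks Col3a1 led with 396 ± 55.6 CPM per kb in corrected, 556 ± 30.3 CPM per kb in delEx44 and 347 ± 8.38 CPM per kb in WT muscle (SD), and Col1a1 came second with 249 ± 43.2 CPM per kb in corrected, 291 ± 38.4 CPM per kb in delEx44 and 302 ± 65.7 CPM per kb in WT muscle (SD). In WT muscle of that age Col3a1 and Col1a1 lay within the spread of each other, whereas Col3a1 in delEx44 muscle stood clear of Col1a1. The overlap in WT muscle rested on library 3. Within WT libraries Col3a1 per Col1a1 per kb was 1.23 in library 1, 1.40 in library 2 and 0.921 in library 3. Col4a1, the main basement membrane chain, had 123 ± 6.90 CPM per kb in corrected, 127 ± 12.8 CPM per kb in delEx44 and 116 ± 12.8 CPM per kb in WT muscle (SD) at 4 weeks. At 18 months the order differed: Col4a1 led in corrected and WT muscle, and its level per kb was 46.5 ± 6.87 CPM per kb in corrected, 51.7 ± 0.497 CPM per kb in delEx44 and 41.3 ± 1.51 CPM per kb in WT muscle (SD). Col3a1 at that age had 41.3 ± 12.1 CPM per kb in corrected, 89.4 ± 15.1 CPM per kb in delEx44 and 33.8 ± 2.27 CPM per kb in WT muscle (SD), so it led in delEx44 muscle and was within the spread of Col4a1 in corrected muscle. Type I collagen was further down at 18 months, with Col1a1 at 19.1 ± 3.75 CPM per kb in corrected, 36.5 ± 3.29 CPM per kb in delEx44 and 18.0 ± 2.00 CPM per kb in WT muscle (SD).

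Each member was compared between genotypes within a stage, with edgeR's quasi-likelihood test fitted over all genes and Benjamini-Hochberg adjusted p under 0.05 as the call. Log2 changes are given as delEx44 over WT or corrected over delEx44, with their standard error, and all adjusted p-values come from that test. In delEx44 over WT at 4 weeks 14 collagens rose and 9 fell among the 43 tested, a share of 53.5%, beside 50.2% of all 15013 genes tested (25.2% higher, 25% lower). After the run 21 rose and 5 fell among 43, or 60.5%, beside 29.1% of all genes (14.9% higher, 14.2% lower). At 18 months 21 rose and 9 fell among 41, or 73.2%, beside 52.7% of 14337 genes (28.8% higher, 23.8% lower). The share at 4 weeks was thus near the background, while the shares after the run and at 18 months exceeded it. The number of falls moved when single libraries were left out. At 4 weeks the split became 16 higher and 5 lower without WT library 3, 13 and 5 without delEx44 library 1, and 14 and 3 in a fit of only these 2 groups. After the run it became 16 higher and 3 lower without WT library 1, 16 and 1 without WT library 2, 19 and 3 without delEx44 library 1, 16 and 0 without delEx44 library 2, and 18 and 3 in a fit of only these 2 groups. The median log2 change of the collagens tested was 0.13 at 4 weeks, 0.61 after the run and 0.40 at 18 months, beside -0.0040, -0.012 and 0.048 over all genes. Across the 3 stages, which share no libraries, 12 members rose at every stage and 3 fell at every stage, while 6 passed at none (Col5a3, Col6a4, Col8a2, Col11a1, Col13a1 and Col27a1). Of these 6, Col6a4 was not tested at any stage. How many of all genes were called alike at every stage was not counted, so these numbers have no background beside them.

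Corrected over delEx44 gave counts mostly in the other direction. At 4 weeks 4 collagens rose and 15 fell among 43 tested (46.3% of all genes called, 22.1% higher and 24.2% lower). After the run 2 rose and 18 fell (23.2% of all genes, 10.8% higher and 12.4% lower), and at 18 months 4 rose and 22 fell among 41 (41% of all genes, 19.6% higher and 21.4% lower). After the run the split became 1 higher and 10 lower without delEx44 library 2, 0 and 8 without corrected library 1, and 1 and 6 in a fit of only these 2 groups, and at 18 months 7 and 20 without corrected library 3. The medians over the collagens were -0.26, -0.34 and -0.57 at 4 weeks, after the run and at 18 months, beside -0.0070, -0.0040 and -0.028 over all genes. These comparisons share their delEx44 libraries with those of delEx44 over WT.

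Corrected over WT called few members. At 4 weeks no collagen and no gene of the 15013 passed edgeR's test (0% called), with 11 collagens at an unadjusted p under 0.05 and 1 collagen called by DESeq2. After the run no collagen passed beside 0.02% of all genes, with 2 collagens at an unadjusted p under 0.05 and 0 called by DESeq2. At 18 months 1 rose and 2 fell beside 4.76% of all genes (2.34% higher, 2.43% lower), and DESeq2 called 5. The 3 calls were Col28a1 at 0.89 ± 0.19 (adjusted p = 0.037), Col24a1 at -1.08 ± 0.18 (adjusted p = 0.019) and Col15a1 at -0.33 ± 0.077 (adjusted p = 0.044). Each of these was lost when any one WT library was left out, with adjusted p = 0.067 to 0.14 for Col28a1, 0.058 to 0.077 for Col24a1 and up to 0.13 for Col15a1, and Col15a1 also without corrected library 1.

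The counts depend on the scaling between libraries. TMM factors ran from 0.9109 to 1.011 in the corrected libraries, from 1.051 to 1.235 in the delEx44 libraries and from 0.8722 to 0.9824 in the WT libraries. On total counts with no scaling factor, an alternative chosen after seeing the data, the median of all genes in delEx44 over WT shifted to 0.39 at 4 weeks, 0.12 after the run and 0.35 at 18 months, and in corrected over delEx44 to -0.33, -0.12 and -0.30. The collagen counts then became 25 higher and 6 lower, 22 higher and 2 lower, and 27 higher and 6 lower in delEx44 over WT at the 3 stages. In corrected over delEx44 they became 3 higher and 28 lower at 4 weeks, 1 and 19 after the run, and 3 and 26 at 18 months, and in corrected over WT at 18 months 1 and 1. Changes below are relative to the median gene.

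**Figure D2:**
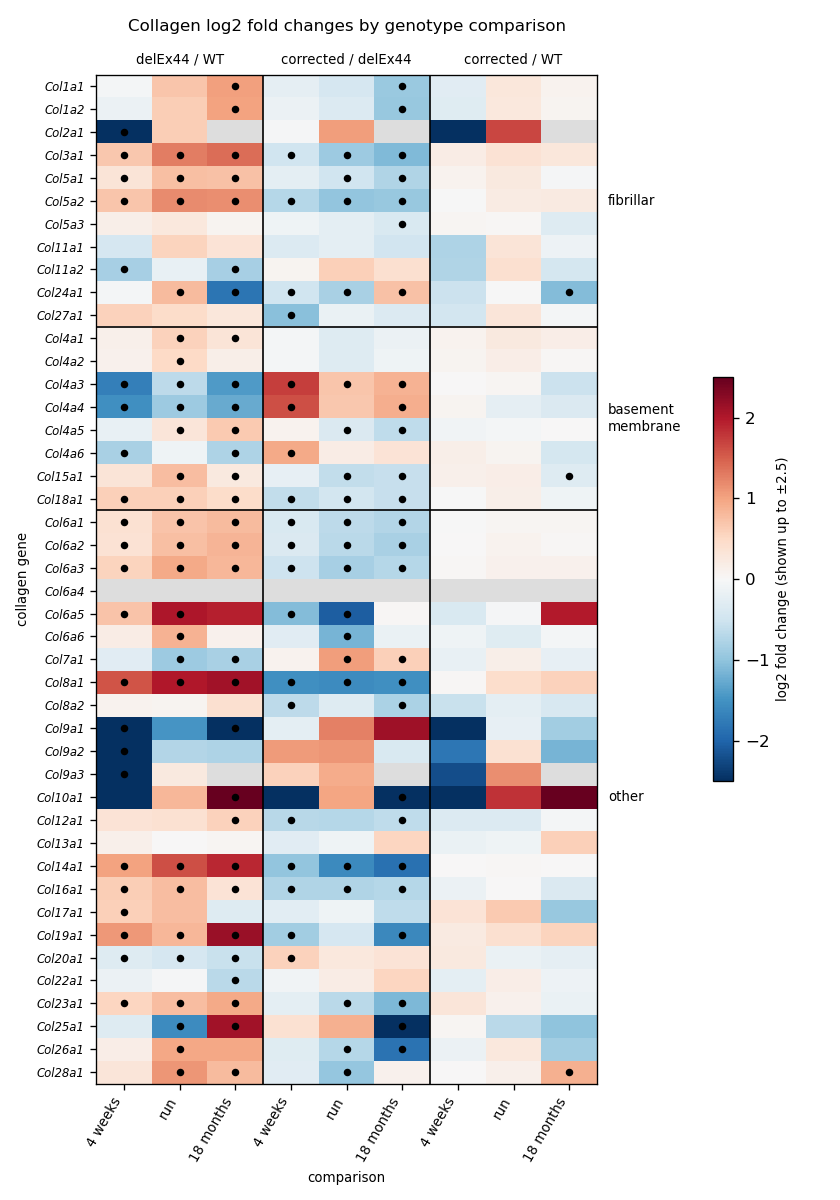
Log2 fold changes (colour scale, capped at 2.5 in either direction) of each of the 44 collagens (rows) in delEx44 over WT, corrected over delEx44 and corrected over WT at each stage (columns), with grey for members not tested. A dot marks an adjusted p under 0.05. In delEx44 over WT 12 members are higher at every stage, among them Col3a1, Col5a2, Col8a1 and Col14a1, and 3 (Col4a3, Col4a4, Col20a1) are lower at every stage. All genes were not counted in this way.

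Among the fibrillar collagens 3 rose and 2 fell of 11 tested in delEx44 over WT at 4 weeks, 4 rose and 0 fell after the run, and 5 rose and 2 fell of 10 at 18 months. These were 45.5%, 36.4% and 70% of the class, beside 50.2%, 29.1% and 52.7% of all genes. The 2 falls at 4 weeks were Col2a1 and Col11a2, and both calls were lost without WT library 3 of that age. Col3a1, Col5a1 and Col5a2 rose at every stage. Col3a1 encodes the only chain of type III collagen, the fine fibres of soft connective tissue (chr1:45311538-45349706, plus strand, GRCm38). Col3a1 at 4 weeks measured 3511, 4511 and 3632 CPM in corrected, 5660.0, 5588 and 5112 CPM in delEx44 and 3321, 3486 and 3404 CPM in WT muscle. Col3a1 after the run stood at 962 and 1296 CPM in corrected, 1807 and 2412 CPM in delEx44 and 959 and 788 CPM in WT muscle. Col3a1 at 18 months reached 518, 281 and 418 CPM in corrected, 977, 708 and 948 CPM in delEx44 and 357, 322 and 315 CPM in WT muscle. Every delEx44 library exceeded every corrected and WT library of its stage. In delEx44 over WT the change was 0.68 ± 0.14 (adjusted p = 0.0013) at 4 weeks, 1.27 ± 0.17 (adjusted p = 0.00025) after the run and 1.41 ± 0.21 (adjusted p = 8e-04) at 18 months. In corrected over delEx44 it was -0.49 ± 0.14 (adjusted p = 0.012), -0.90 ± 0.17 (adjusted p = 0.003) and -1.11 ± 0.21 (adjusted p = 0.0035).

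Col1a1 and Col1a2 encode the chains of type I collagen, the main protein of tendon and scar. Col1a1 at 4 weeks measured 1623, 1920.4 and 1353 CPM in corrected, 1872, 2174 and 1674 CPM in delEx44 and 1810.3, 1662 and 2472 CPM in WT muscle. Col1a1 after the run stood at 449 and 677 CPM in corrected, 636 and 862 CPM in delEx44 and 527 and 399 CPM in WT muscle. Col1a1 at 18 months reached 154, 111 and 111 CPM in corrected, 262, 219 and 237 CPM in delEx44 and 132, 117 and 106 CPM in WT muscle. The groups overlapped at 4 weeks, delEx44 was above WT but overlapped corrected after the run, and delEx44 was above both at 18 months. Col1a1 in delEx44 over WT stood at -0.055 ± 0.21 (adjusted p = 0.84) at 4 weeks and 0.69 ± 0.26 (adjusted p = 0.06) after the run, and rose by 1.02 ± 0.14 (adjusted p = 0.00028) at 18 months. In corrected over delEx44 it stood at -0.22 ± 0.21 (adjusted p = 0.4) and -0.41 ± 0.25 (adjusted p = 0.27) and at 18 months at -0.93 ± 0.14 (adjusted p = 0.00068). Col1a2 at 4 weeks measured 2568, 3085 and 2268 CPM in corrected, 2929, 3322 and 2566 CPM in delEx44 and 2938, 2758 and 4060.4 CPM in WT muscle. Col1a2 after the run stood at 737 and 1075 CPM in corrected, 987 and 1312 CPM in delEx44 and 801 and 708 CPM in WT muscle. Col1a2 at 18 months reached 375, 255 and 269 CPM in corrected, 642, 504 and 577 CPM in delEx44 and 299, 291 and 271 CPM in WT muscle. WT library 3 at 4 weeks was the highest of its stage for both chains, and delEx44 libraries were above the others at 18 months. Col1a2 gave values close to those of Col1a1: delEx44 over WT was -0.15 ± 0.19 (adjusted p = 0.54) at 4 weeks, 0.61 ± 0.23 (adjusted p = 0.066) after the run and 1.00 ± 0.14 (adjusted p = 4e-04) at 18 months, and corrected over delEx44 at 18 months was -0.94 ± 0.14 (adjusted p = 0.00086).

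The ratio of Col3a1 to Col1a1 counts within a library does not depend on scaling. At 4 weeks it was 2.16, 2.35 and 2.68 in corrected, 3.02, 2.57 and 3.05 in delEx44 and 1.83, 2.097 and 1.38 in WT muscle. After the run it was 2.14 and 1.92 in corrected, 2.84 and 2.798 in delEx44 and 1.82 and 1.98 in WT muscle, and at 18 months 3.37, 2.53 and 3.76 in corrected, 3.73, 3.23 and 4.005 in delEx44 and 2.71, 2.75 and 2.98 in WT muscle. The delEx44 libraries were above the WT libraries at each stage without overlap, and an exact permutation test of 3 against 3 libraries cannot give a two-sided p under 0.1. Col1a2 per Col1a1 ranged over all libraries from 1.52 to 2.56. It averaged 1.62 ± 0.0488 in corrected, 1.54 ± 0.0203 in delEx44 and 1.64 ± 0.0185 in WT muscle (SD) at 4 weeks and 2.38 ± 0.0787 in corrected, 2.39 ± 0.0848 in delEx44 and 2.44 ± 0.153 in WT muscle (SD) at 18 months.

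**Figure D3:**
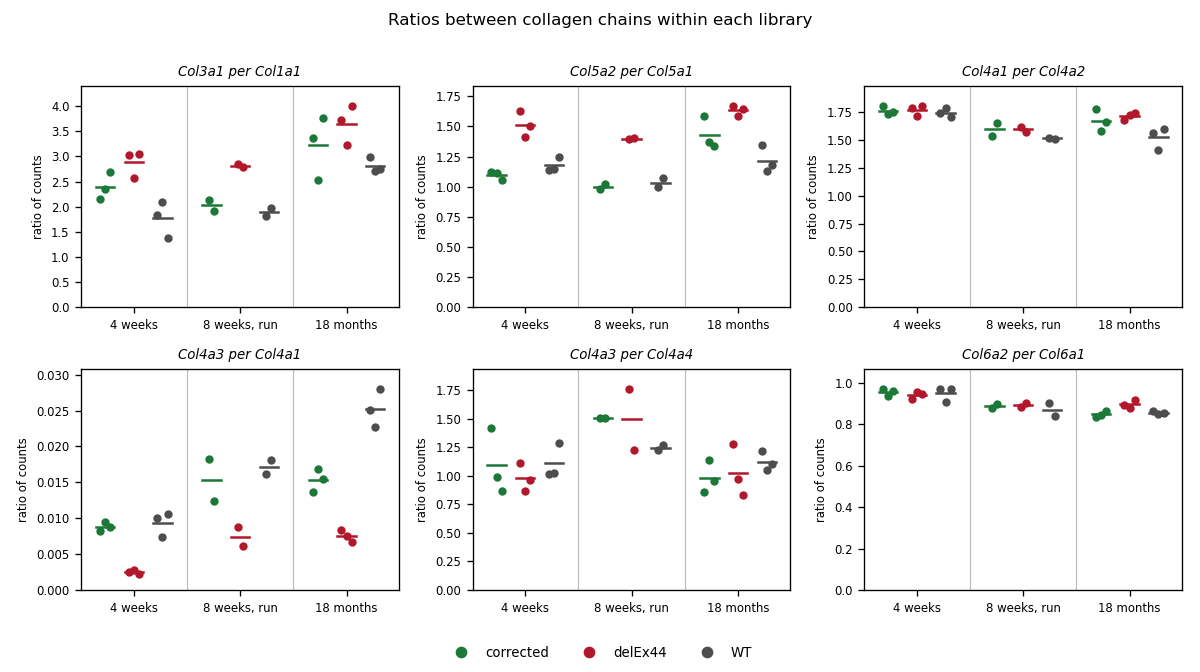
Ratios of read counts within each library (vertical axes) for 6 pairs of collagen genes, with corrected, delEx44 and WT side by side at each stage. Points are libraries and lines are group means; Col3a1 per Col1a1 is 2.57 to 3.05 in delEx44 against 1.38 to 2.10 in WT muscle at 4 weeks.

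Type V collagen sits inside type I fibres and sets their diameter. Col5a1 at 4 weeks measured 286, 345 and 309 CPM in corrected, 376, 393 and 347 CPM in delEx44 and 289.9, 293 and 303 CPM in WT muscle. Col5a1 after the run stood at 117 and 149 CPM in corrected, 173 and 203 CPM in delEx44 and 118 and 107 CPM in WT muscle. Col5a1 at 18 months reached 58.9, 45.7 and 55.4 CPM in corrected, 96.5, 81.3 and 92.1 CPM in delEx44 and 61.1, 52.2 and 49.8 CPM in WT muscle. The delEx44 libraries exceeded both other groups at every stage. Col5a1 rose in delEx44 over WT by 0.33 ± 0.1 (adjusted p = 0.014), 0.74 ± 0.12 (adjusted p = 0.00088) and 0.72 ± 0.11 (adjusted p = 0.00046) at 4 weeks, after the run and at 18 months, and in corrected over delEx44 stood at -0.25 ± 0.1 (adjusted p = 0.06), -0.50 ± 0.12 (adjusted p = 0.011) and -0.75 ± 0.11 (adjusted p = 0.00056). The run call in corrected over delEx44 was lost without run delEx44 library 2 or run corrected library 1 (-0.38 to -0.34, adjusted p = 0.1 to 0.14). Col5a2 at 4 weeks measured 320.3, 384 and 327 CPM in corrected, 613, 554 and 520.0 CPM in delEx44 and 330.1, 338 and 377 CPM in WT muscle. Col5a2 after the run stood at 114 and 152 CPM in corrected, 241 and 286 CPM in delEx44 and 117 and 115 CPM in WT muscle. Col5a2 at 18 months reached 93.5, 62.5 and 74.1 CPM in corrected, 161, 129 and 152 CPM in delEx44 and 69.001, 61.7 and 66.9 CPM in WT muscle. No delEx44 library overlapped another group. Col5a2 rose by 0.69 ± 0.11 (adjusted p = 0.00026), 1.18 ± 0.14 (adjusted p = 0.00012) and 1.16 ± 0.14 (adjusted p = 0.00015) in delEx44 over WT, and fell in corrected over delEx44 at -0.71 ± 0.11 (adjusted p = 0.00027), -0.98 ± 0.14 (adjusted p = 0.00064) and -0.94 ± 0.14 (adjusted p = 7e-04). Col5a2 per Col5a1 counts were 1.12, 1.11 and 1.06 in corrected, 1.63, 1.41 and 1.501 in delEx44 and 1.14, 1.15 and 1.25 in WT muscle at 4 weeks, with no overlap between delEx44 and either other group. Col5a3 at 4 weeks measured 204, 222 and 233 CPM in corrected, 234, 253 and 222 CPM in delEx44 and 227, 204 and 209 CPM in WT muscle. Col5a3 after the run stood at 115 and 153 CPM in corrected, 146 and 170.2 CPM in delEx44 and 142 and 122 CPM in WT muscle. Col5a3 at 18 months reached 36.7, 34.003 and 27.1 CPM in corrected, 45.96, 34.8 and 45.9 CPM in delEx44 and 42.4, 37.7 and 41.5 CPM in WT muscle. Col5a3, the less common type V chain, overlapped between delEx44 and both other groups at 4 weeks and 18 months, and after the run delEx44 was above WT but overlapped corrected. Its delEx44 over WT values were 0.15 ± 0.11 (adjusted p = 0.27), 0.26 ± 0.13 (adjusted p = 0.16) and 0.059 ± 0.13 (adjusted p = 0.73), none of which passed, and corrected over delEx44 at 18 months stood at -0.37 ± 0.13 (adjusted p = 0.046). That call was lost without 18-month delEx44 library 1 or 3 or 18-month corrected library 2 or 3 (-0.40 to -0.22, adjusted p = 0.065 to 0.15).

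Col24a1 encodes a fibrillar collagen known from bone and cornea. Col24a1 at 4 weeks was at 10.3, 9.56 and 10.2 CPM in corrected, 13.1, 17.7 and 11.4 CPM in delEx44 and 15.2, 11.9 and 16.7 CPM in WT muscle. Col24a1 after the run had 13.96 and 13.7 CPM in corrected, 24.1 and 24.1 CPM in delEx44 and 13.8 and 14.2 CPM in WT muscle. Col24a1 at 18 months came to 7.801, 11.8 and 11.4 CPM in corrected, 6.26, 4.92 and 7.35 CPM in delEx44 and 21.1, 20.1 and 24.3 CPM in WT muscle. Its delEx44 libraries were the highest after the run and the lowest at 18 months, while at 4 weeks delEx44 and WT overlapped. In delEx44 over WT it stood at -0.054 ± 0.14 (adjusted p = 0.77) at 4 weeks, rose by 0.78 ± 0.17 (adjusted p = 0.0048) after the run and stood at -1.82 ± 0.18 (adjusted p = 4.6e-05) at 18 months. Corrected over delEx44 was -0.49 ± 0.14 (adjusted p = 0.013), -0.80 ± 0.17 (adjusted p = 0.0059) and 0.74 ± 0.18 (adjusted p = 0.0091), the last one a rise. The 4-week call was lost without 4-week delEx44 library 2 (-0.30, adjusted p = 0.061). Col27a1, a fibrillar collagen of cartilage, fell in corrected over delEx44 at 4 weeks with -1.04 ± 0.23 (adjusted p = 0.0029), and its level was 7.07, 5.97 and 6.93 CPM in corrected, 15.2, 13.5 and 12.3 CPM in delEx44 and 7.49, 6.64 and 13.4 CPM in WT muscle.

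**Figure D4:**
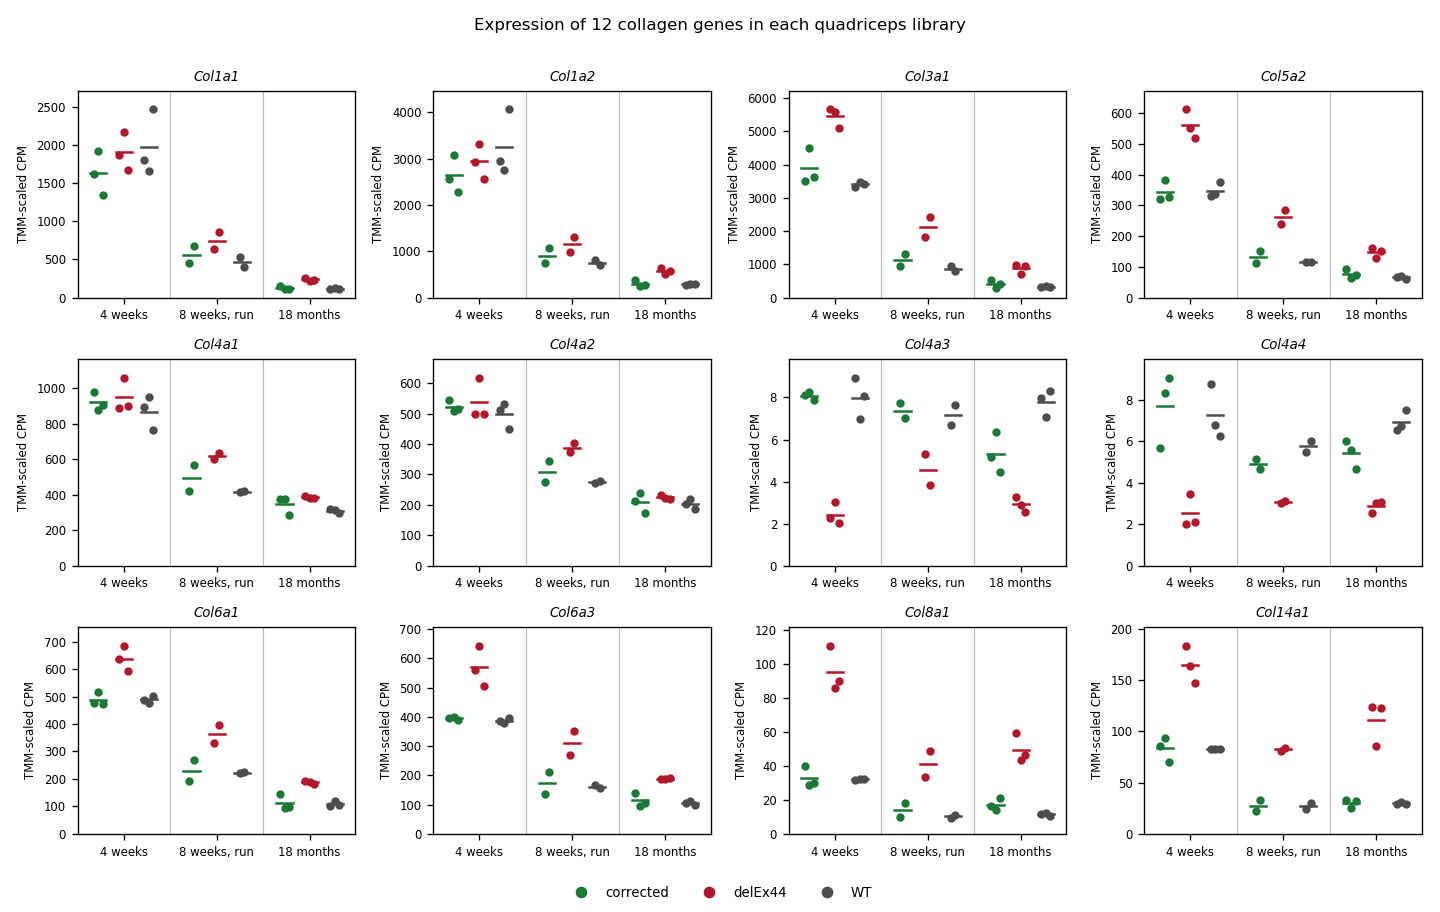
TMM-scaled CPM (vertical axes, from 0, with the 18-month table scaled separately) of 12 collagens in every library, with corrected, delEx44 and WT side by side at each stage. Points are libraries and lines are group means; Col3a1 in delEx44 muscle exceeds both other groups at each stage, and Col4a3 is lower in delEx44 muscle at each stage.

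The 7 markers of fibroblasts and fibro-adipogenic progenitors summed to 1896 to 2320.0 CPM in corrected, 1968 to 2147 CPM in delEx44 and 1824 to 1921 CPM in WT muscle at 4 weeks, to 1382 to 1527 CPM in corrected, 1723 to 1933 CPM in delEx44 and 1369 to 1646 CPM in WT muscle after the run, and to 1591 to 1883 CPM in corrected, 2266 to 2614 CPM in delEx44 and 1498 to 1676 CPM in WT muscle at 18 months. The delEx44 sums were above WT at each stage and above corrected after the run and at 18 months, while at 4 weeks corrected and delEx44 overlapped. In delEx44 over WT 4, 3 and 7 of the 7 rose at 4 weeks, after the run and at 18 months, in corrected over delEx44 2, 3 and 5 fell, and none was at 0 in any library. The 6 tendon markers summed to 818 to 1182 CPM in corrected, 1252 to 1401 CPM in delEx44 and 986.6 to 1432 CPM in WT muscle at 4 weeks, and to 351 to 546 CPM in corrected, 568 to 675 CPM in delEx44 and 487 to 504 CPM in WT muscle at 18 months. After the run they summed to 455.7 to 733.4 CPM in corrected, 792.3 to 1035 CPM in delEx44 and 567.5 to 740.5 CPM in WT muscle. In delEx44 over WT 1, 1 and 3 of these 6 rose at 4 weeks, after the run and at 18 months, and none fell. The 6 macrophage markers ran at 340.4 to 440.3 CPM in corrected, 1033 to 1499 CPM in delEx44 and 212 to 257 CPM in WT muscle at 4 weeks. Adipocyte markers, 5 genes, summed to 99.3 to 226 CPM in corrected, 748 to 927 CPM in delEx44 and 265 to 298 CPM in WT muscle at 18 months. At the earlier stages their delEx44 and WT sums overlapped. They were 105.7 to 215.5 CPM in delEx44 and 87.66 to 380.4 CPM in WT muscle at 4 weeks. After the run they were 192 to 314.9 CPM in delEx44 and 158.5 to 813.8 CPM in WT muscle. The part of these cell types in the collagen changes was not tested.

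Basement membrane collagens split by chain. Of the 8 tested 1 rose and 3 fell in delEx44 over WT at 4 weeks, 5 rose and 2 fell after the run, and 4 rose and 3 fell at 18 months. The class was thus called at 50%, 87.5% and 87.5%, beside 50.2%, 29.1% and 52.7% of all genes, so its share at 4 weeks was that of the background. The common network chains Col4a1 and Col4a2 were not called at 4 weeks while Col4a3 and Col4a4, chains of the network that is best known from kidney, lung and the neuromuscular junction, fell at every stage. Col4a1 at 4 weeks was at 978, 878 and 904 CPM in corrected, 891, 1059.7 and 899 CPM in delEx44 and 893, 948 and 762 CPM in WT muscle. Col4a1 after the run had 424 and 567 CPM in corrected, 602 and 633 CPM in delEx44 and 414 and 419 CPM in WT muscle. Col4a1 at 18 months came to 377, 376 and 288 CPM in corrected, 390.4, 384 and 384 CPM in delEx44 and 311, 296 and 318 CPM in WT muscle. All groups overlapped at 4 weeks, and delEx44 was above WT after the run and at 18 months. Col4a1 in delEx44 over WT was 0.13 ± 0.11 (adjusted p = 0.36), 0.57 ± 0.14 (adjusted p = 0.0088) and 0.32 ± 0.098 (adjusted p = 0.018) at the 3 stages. The run call was lost without run WT library 2 (0.58, adjusted p = 0.05), and the 18-month call without 18-month WT library unnumbered B or 18-month delEx44 library 1 (0.29 to 0.32, adjusted p = 0.051 to 0.07). Col4a2 at 4 weeks was at 543, 508 and 515 CPM in corrected, 498, 618 and 498 CPM in delEx44 and 512, 532 and 448 CPM in WT muscle. Col4a2 after the run had 275 and 343 CPM in corrected, 373 and 403 CPM in delEx44 and 272 and 278 CPM in WT muscle. Col4a2 at 18 months came to 213, 238 and 173 CPM in corrected, 233, 223 and 219.9 CPM in delEx44 and 220.4, 185 and 204 CPM in WT muscle. Col4a2 overlapped between groups at 4 weeks and 18 months and stood highest in the delEx44 run libraries. Its delEx44 over WT values were 0.11 ± 0.1 (adjusted p = 0.38), 0.49 ± 0.13 (adjusted p = 0.011) and 0.15 ± 0.11 (adjusted p = 0.27). Its run call was lost without run WT library 1 or 2 or run delEx44 library 2 (0.44 to 0.51, adjusted p = 0.056 to 0.068). Without a scaling factor Col4a1 at 4 weeks gave 0.53 with an adjusted p of 0.0023. Corrected over delEx44 passed for neither chain at any stage, with Col4a1 at -0.046 ± 0.11, -0.32 ± 0.14 and -0.15 ± 0.097 and Col4a2 at -0.043 ± 0.1, -0.33 ± 0.13 and -0.12 ± 0.11. Col4a1 per Col4a2 counts stayed between 1.41 and 1.80 in all 24 libraries; the genes share only 22 exon bases, on opposite strands.

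Col4a3 at 4 weeks was at 8.0999, 8.28 and 7.88 CPM in corrected, 2.25, 3.02 and 2.03 CPM in delEx44 and 8.94, 6.97 and 8.06 CPM in WT muscle. Col4a3 after the run had 7.73 and 7.01 CPM in corrected, 5.296 and 3.85 CPM in delEx44 and 6.703 and 7.62 CPM in WT muscle. Col4a3 at 18 months came to 5.17, 6.36 and 4.46 CPM in corrected, 3.26, 2.91 and 2.56 CPM in delEx44 and 7.06, 8.301 and 7.96 CPM in WT muscle. Every delEx44 library was below every corrected and WT library at each stage. Col4a3 in delEx44 over WT was -1.72 ± 0.16 (adjusted p = 3.8e-06), -0.65 ± 0.19 (adjusted p = 0.022) and -1.41 ± 0.16 (adjusted p = 7.7e-05). Col4a3 in corrected over delEx44 was 1.73 ± 0.16 (adjusted p = 7.3e-06), 0.69 ± 0.19 (adjusted p = 0.02) and 0.87 ± 0.16 (adjusted p = 0.0019). The run calls were lost without run WT library 2 or run delEx44 library 2 (-0.55 to -0.44, adjusted p = 0.13 to 0.17) for delEx44 over WT and without run delEx44 library 2 or run corrected library 1 (0.48 to 0.61, adjusted p = 0.13 to 0.16) for corrected over delEx44. Col4a4 at 4 weeks was at 5.697, 8.33 and 9.07 CPM in corrected, 2.02, 3.47 and 2.099 CPM in delEx44 and 8.79, 6.79 and 6.28 CPM in WT muscle. Col4a4 after the run had 5.12 and 4.66 CPM in corrected, 3.004 and 3.13 CPM in delEx44 and 5.49 and 6.01 CPM in WT muscle. Col4a4 at 18 months came to 6.02, 5.6004 and 4.67 CPM in corrected, 2.54, 3.01 and 3.09 CPM in delEx44 and 6.73, 7.504 and 6.53 CPM in WT muscle. Its delEx44 libraries were also the lowest at each stage. Col4a4 in delEx44 over WT was -1.52 ± 0.22 (adjusted p = 1e-04), -0.91 ± 0.27 (adjusted p = 0.023) and -1.27 ± 0.14 (adjusted p = 7.5e-05). Col4a4 in corrected over delEx44 was 1.60 ± 0.22 (adjusted p = 9.4e-05), 0.67 ± 0.27 (adjusted p = 0.09) and 0.91 ± 0.14 (adjusted p = 0.00077). The run call was lost without run WT library 1 or 2 or run delEx44 library 1 or 2 (-0.97 to -0.84, adjusted p = 0.055 to 0.11). Col4a3 per Col4a4 counts, the head-to-head pair shown above, averaged 1.09 ± 0.290 in corrected, 0.984 ± 0.124 in delEx44 and 1.11 ± 0.151 in WT muscle (SD) at 4 weeks. Col4a3 per Col4a1 counts were 0.00829, 0.00942 and 0.00872 in corrected, 0.00253, 0.00285 and 0.00225 in delEx44 and 0.01002, 0.00735 and 0.0106 in WT muscle at 4 weeks, a ratio that needs no scaling and did not overlap between delEx44 and either other group. Without a scaling factor Col4a3 at 4 weeks stayed at -1.31. Of the merged exons of Col4a3, 563 bases (5.65%) overlap C430014B12Rik on the opposite strand, and with no strand setting of the counting stated, reads from there cannot be told apart. The 6 Schwann cell markers summed to 152 to 185 CPM in corrected, 77.8 to 96.7 CPM in delEx44 and 130.0 to 212 CPM in WT muscle at 4 weeks, to 129.5 to 133 CPM in corrected, 71.5 to 79.1 CPM in delEx44 and 117 to 149 CPM in WT muscle after the run, and to 75.8 to 111 CPM in corrected, 79.99 to 87.2 CPM in delEx44 and 100.7 to 116 CPM in WT muscle at 18 months. Of the 6, 6 fell at 4 weeks, 5 after the run and 2 at 18 months in delEx44 over WT, and 6, 2 and 1 rose in corrected over delEx44. At 18 months the corrected sums overlapped the delEx44 sums. The part of Schwann cells in the changes of Col4a3 and Col4a4 was not tested.

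Col4a5 and Col4a6 form the third pair of type IV genes, on the X chromosome, with starts 1308 bases apart. Col4a5 at 4 weeks was at 24.6, 25.9 and 24.5 CPM in corrected, 23.001, 26.3 and 21.3 CPM in delEx44 and 28.7, 25.1 and 26.2 CPM in WT muscle. Col4a5 after the run had 14.8 and 15.3 CPM in corrected, 19.4 and 19.02 CPM in delEx44 and 16.02 and 14.99 CPM in WT muscle. Col4a5 at 18 months came to 14.3, 10.9 and 11.7 CPM in corrected, 21.5, 17.4 and 18.7 CPM in delEx44 and 11.5, 13.05 and 12.3 CPM in WT muscle. The groups overlapped at 4 weeks, and the delEx44 libraries were the highest at both later stages. Col4a5 in delEx44 over WT was -0.18 ± 0.078 (adjusted p = 0.073), 0.31 ± 0.097 (adjusted p = 0.031) and 0.65 ± 0.12 (adjusted p = 0.0014). Col4a5 in corrected over delEx44 was 0.087 ± 0.078 (adjusted p = 0.38), -0.35 ± 0.098 (adjusted p = 0.02) and -0.64 ± 0.12 (adjusted p = 0.0019). The run calls were lost without run WT library 1 or 2 or run delEx44 library 1 or 2 (0.26 to 0.36, adjusted p = 0.059 to 0.18) and without run delEx44 library 1 or 2 or run corrected library 1 or 3 (-0.38 to -0.33, adjusted p = 0.054 to 0.13). Col4a6 lay between 0.708 and 3.04 CPM in all libraries and stood in delEx44 over WT at -0.81 ± 0.21 (adjusted p = 0.0068), -0.11 ± 0.25 (adjusted p = 0.78) and -0.77 ± 0.18 (adjusted p = 0.0052).

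Types XV and XVIII carry sugar chains and bind the outer face of the basement membrane. Col15a1 at 4 weeks measured 263, 225 and 229 CPM in corrected, 252, 334 and 242 CPM in delEx44 and 221, 232 and 208 CPM in WT muscle. Col15a1 after the run stood at 84.7 and 136 CPM in corrected, 153 and 182 CPM in delEx44 and 98.6 and 97.97 CPM in WT muscle. Col15a1 at 18 months reached 51.7, 54.4 and 57.8 CPM in corrected, 87.1, 73.98 and 81.96 CPM in delEx44 and 70.7, 64.4 and 70.3 CPM in WT muscle. At 4 weeks delEx44 was above WT and corrected overlapped both, and delEx44 was the highest group at both later stages. Col15a1 in delEx44 over WT was 0.33 ± 0.16 (adjusted p = 0.1), 0.77 ± 0.2 (adjusted p = 0.012) and 0.24 ± 0.076 (adjusted p = 0.021). Col15a1 in corrected over delEx44 was -0.21 ± 0.16 (adjusted p = 0.3), -0.61 ± 0.2 (adjusted p = 0.042) and -0.57 ± 0.076 (adjusted p = 0.00034). Its delEx44 over WT call was lost without run WT library 1 or 2 or run delEx44 library 2 (0.64 to 0.77, adjusted p = 0.055 to 0.081) after the run and without 18-month WT library unnumbered B or 18-month delEx44 library 1 or 3 (0.19 to 0.23, adjusted p = 0.064 to 0.093) at 18 months, and its corrected over delEx44 run call without run delEx44 library 1 or 2 or run corrected library 1 (-0.72 to -0.31, adjusted p = 0.057 to 0.31). Col18a1 at 4 weeks was at 50.3, 50.5 and 44.3 CPM in corrected, 75.7, 79.4 and 67.2 CPM in delEx44 and 47.05, 50.98 and 48.9 CPM in WT muscle. Col18a1 after the run had 27.8 and 34.4 CPM in corrected, 40.5 and 44.9 CPM in delEx44 and 28.1 and 28.1 CPM in WT muscle. Col18a1 at 18 months came to 22.8, 20.4 and 17.6 CPM in corrected, 31.6, 28.5 and 29.96 CPM in delEx44 and 22.3, 19.9 and 23.1 CPM in WT muscle. The delEx44 libraries were above all others at each stage. Col18a1, the source of the endostatin fragment, rose by 0.60 ± 0.087 (adjusted p = 1e-04), 0.60 ± 0.11 (adjusted p = 0.0014) and 0.47 ± 0.1 (adjusted p = 0.0032). Col18a1 in corrected over delEx44 was -0.62 ± 0.087 (adjusted p = 0.00011), -0.46 ± 0.11 (adjusted p = 0.0094) and -0.57 ± 0.1 (adjusted p = 0.0015). Among the calls of Col18a1, the run fall was lost without run delEx44 library 2 or run corrected library 1 (-0.38 to -0.31, adjusted p = 0.074 to 0.12). The 6 endothelial markers summed to 414 to 527 CPM in delEx44 and 390.5 to 545 CPM in WT muscle at 4 weeks, and to 438 to 457 CPM in delEx44 and 443 to 508 CPM in WT muscle at 18 months, and none of them was called in delEx44 over WT at any stage.

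The other collagens counted 10 rises and 4 falls among 24 tested in delEx44 over WT at 4 weeks, 12 and 3 after the run, and 12 and 4 among 23 at 18 months. Their called shares were 58.3%, 62.5% and 69.6%, beside 50.2%, 29.1% and 52.7% of all genes. Among the 4 falls at 4 weeks, those of Col9a2 and Col9a3 were lost without WT library 3 of that age. Type VI collagen forms beaded filaments next to the basement membrane, and loss of its chains causes muscular dystrophies in humans. Col6a1 at 4 weeks was at 476, 517 and 474 CPM in corrected, 638, 685 and 592 CPM in delEx44 and 488, 478 and 503 CPM in WT muscle. Col6a1 after the run had 192 and 269.6 CPM in corrected, 332 and 398 CPM in delEx44 and 222 and 224 CPM in WT muscle. Col6a1 at 18 months came to 146, 92.9 and 98.8 CPM in corrected, 193, 188 and 180.2 CPM in delEx44 and 119, 105 and 102 CPM in WT muscle. Every delEx44 library was above all others of its stage. Col6a1 rose by 0.38 ± 0.11 (adjusted p = 0.011), 0.71 ± 0.14 (adjusted p = 0.002) and 0.79 ± 0.15 (adjusted p = 0.0023) in delEx44 over WT. Col6a2 at 4 weeks was at 463, 485 and 455 CPM in corrected, 590.2, 654 and 562 CPM in delEx44 and 475, 435 and 489 CPM in WT muscle. Col6a2 after the run had 169 and 242 CPM in corrected, 293 and 359.6 CPM in delEx44 and 200.3 and 188 CPM in WT muscle. Col6a2 at 18 months came to 122, 78.6 and 85.7 CPM in corrected, 173, 165 and 165 CPM in delEx44 and 101, 89.3 and 88.03 CPM in WT muscle. Col6a2 showed the same separation of the delEx44 libraries, with 0.37 ± 0.12 (adjusted p = 0.019), 0.75 ± 0.15 (adjusted p = 0.0023) and 0.85 ± 0.14 (adjusted p = 0.0011). Col6a3 at 4 weeks was at 397, 399.9 and 390.2 CPM in corrected, 559, 643 and 506 CPM in delEx44 and 385, 380.1 and 397 CPM in WT muscle. Col6a3 after the run had 136 and 213 CPM in corrected, 269 and 351 CPM in delEx44 and 166 and 157 CPM in WT muscle. Col6a3 at 18 months came to 139.8, 96.5 and 107 CPM in corrected, 188, 187 and 189.9 CPM in delEx44 and 112, 99.7 and 105 CPM in WT muscle. Col6a3 was likewise highest in each delEx44 library, with 0.56 ± 0.14 (adjusted p = 0.0059), 0.94 ± 0.18 (adjusted p = 0.002) and 0.84 ± 0.12 (adjusted p = 0.00028). In corrected over delEx44 all of Col6a1, Col6a2 and Col6a3 fell at each stage, with Col6a1 at -0.39 ± 0.11 (adjusted p = 0.012), -0.66 ± 0.14 (adjusted p = 0.0044) and -0.73 ± 0.15 (adjusted p = 0.0045), and Col6a3 at -0.52 ± 0.14 (adjusted p = 0.0092), -0.83 ± 0.18 (adjusted p = 0.0056) and -0.72 ± 0.12 (adjusted p = 0.00099). Col6a2 stood there at -0.36 ± 0.12 (adjusted p = 0.023), -0.67 ± 0.15 (adjusted p = 0.0065) and -0.81 ± 0.14 (adjusted p = 0.002). At 4 weeks the Col6a2 calls were lost without 4-week WT library 2 or 4-week delEx44 library 2 (0.32 to 0.32, adjusted p = 0.068 to 0.073) for delEx44 over WT and without 4-week delEx44 library 2 or 4-week corrected library 1 or 3 (-0.36 to -0.31, adjusted p = 0.058 to 0.078) for corrected over delEx44. The run falls were lost without run corrected library 1 (-0.44, adjusted p = 0.053) for Col6a1, run delEx44 library 2 or run corrected library 1 (-0.51 to -0.43, adjusted p = 0.064 to 0.076) for Col6a2 and run delEx44 library 2 or run corrected library 1 (-0.63 to -0.54, adjusted p = 0.053 to 0.056) for Col6a3. Col6a2 per Col6a1 counts lay between 0.838 and 0.973 in all 24 libraries.

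Col6a5 and Col6a6 encode chains that can take the place of Col6a3 in the filament. Col6a5 at 4 weeks was at 2.92, 3.15 and 3.73 CPM in corrected, 7.12, 6.15 and 7.47 CPM in delEx44 and 4.66, 4.62 and 3.45 CPM in WT muscle. Col6a5 after the run had 1.17 and 1.54 CPM in corrected, 5.14 and 6.15 CPM in delEx44 and 1.51 and 1.27 CPM in WT muscle. Col6a5 at 18 months came to 25.8, 1.56 and 2.03 CPM in corrected, 9.01, 11.2 and 8.45 CPM in delEx44 and 2.57, 2.66 and 2.18 CPM in WT muscle. Corrected library 1 at 18 months, with 25.8 CPM, was above every other library of its age, and without it the delEx44 libraries were highest at each stage. Col6a5 in delEx44 over WT was 0.71 ± 0.16 (adjusted p = 0.0022), 2.02 ± 0.21 (adjusted p = 4.8e-05) and 1.94 ± 1 (adjusted p = 0.15). Col6a5 in corrected over delEx44 was -1.08 ± 0.16 (adjusted p = 0.00014), -2.06 ± 0.21 (adjusted p = 0.00012) and 0.038 ± 0.94 (adjusted p = 0.98). Col6a6 at 4 weeks was at 31.6, 31.9 and 35.3 CPM in corrected, 36.8, 50.2 and 33.9 CPM in delEx44 and 38.9, 34.7 and 32.5 CPM in WT muscle. Col6a6 after the run had 11.999 and 15.7 CPM in corrected, 27.4 and 35.02 CPM in delEx44 and 16.6 and 17.6 CPM in WT muscle. Col6a6 at 18 months came to 20.1, 11.5 and 13.4 CPM in corrected, 18.2, 15.6 and 16.96 CPM in delEx44 and 15.4, 17.8 and 13.5 CPM in WT muscle. The delEx44 run libraries were the highest of their stage, and the groups overlapped at 4 weeks and 18 months. Col6a6 in delEx44 over WT was 0.19 ± 0.15 (adjusted p = 0.3), 0.87 ± 0.19 (adjusted p = 0.0045) and 0.12 ± 0.19 (adjusted p = 0.63). Col6a6 in corrected over delEx44 was -0.29 ± 0.15 (adjusted p = 0.12), -1.17 ± 0.19 (adjusted p = 0.0014) and -0.17 ± 0.19 (adjusted p = 0.5). Col6a4 lay between 0 and 0.468 CPM in all libraries and was not tested.

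Col8a1 encodes a short-chain collagen of vessel walls and injured tissue. Col8a1 at 4 weeks was at 39.96, 28.8 and 29.8 CPM in corrected, 111, 85.9 and 89.9 CPM in delEx44 and 31.9, 32.02 and 32.3 CPM in WT muscle. Col8a1 after the run had 9.85 and 17.9 CPM in corrected, 33.6 and 49.0 CPM in delEx44 and 9.28 and 11.2 CPM in WT muscle. Col8a1 at 18 months came to 16.1, 14.2 and 21.2 CPM in corrected, 59.2, 43.3 and 46.1 CPM in delEx44 and 12.5, 10.5 and 11.5 CPM in WT muscle. No delEx44 library overlapped another group. Col8a1 rose by 1.57 ± 0.21 (adjusted p = 0.00011), 2.01 ± 0.27 (adjusted p = 0.00042) and 2.11 ± 0.17 (adjusted p = 1.9e-05). Col8a1 in corrected over delEx44 was -1.54 ± 0.21 (adjusted p = 0.00017), -1.57 ± 0.27 (adjusted p = 0.0023) and -1.53 ± 0.16 (adjusted p = 0.00013). Its partner Col8a2 was not called in delEx44 over WT at any stage. In corrected over delEx44 Col8a2 fell at 4 weeks and at 18 months. At 18 months its delEx44 libraries, at 4.92 to 6.26 CPM, were above WT, at 4.02 to 4.52 CPM. Corrected libraries had 2.14 to 5.12 CPM and overlapped both. Col14a1 and Col12a1 encode fibril-associated collagens on the surface of type I fibres. Col14a1 at 4 weeks was at 85.97, 93.7 and 70.4 CPM in corrected, 183, 164 and 147 CPM in delEx44 and 82.2, 82.3 and 82.4 CPM in WT muscle. Col14a1 after the run had 22.2 and 32.6 CPM in corrected, 80.8 and 83.96 CPM in delEx44 and 23.9 and 30.1 CPM in WT muscle. Col14a1 at 18 months came to 33.4, 25.4 and 32.2 CPM in corrected, 124, 85.4 and 122 CPM in delEx44 and 31.3, 28.9 and 29.5 CPM in WT muscle. The delEx44 libraries lay above the rest of every stage. Col14a1 rose by 1.00 ± 0.14 (adjusted p = 1e-04), 1.61 ± 0.18 (adjusted p = 9.1e-05) and 1.88 ± 0.15 (adjusted p = 2.3e-05). Col14a1 in corrected over delEx44 was -0.98 ± 0.14 (adjusted p = 0.00016), -1.58 ± 0.18 (adjusted p = 0.00021) and -1.86 ± 0.15 (adjusted p = 4e-05). Col12a1 at 4 weeks was at 69.9, 71.3 and 61.8 CPM in corrected, 107, 132 and 87.9 CPM in delEx44 and 77.5, 75.7 and 103 CPM in WT muscle. Col12a1 after the run had 16.4 and 34.7 CPM in corrected, 33.6 and 50.5 CPM in delEx44 and 29.6 and 35.3 CPM in WT muscle. Col12a1 at 18 months came to 37.1, 42.4 and 27.9 CPM in corrected, 59.9, 58.9 and 46.9 CPM in delEx44 and 36.8, 35.9 and 37.9 CPM in WT muscle. At 4 weeks WT library 3 lay among the delEx44 values, after the run delEx44 and the other groups overlapped, and at 18 months the delEx44 libraries were the highest. Col12a1 in delEx44 over WT was 0.35 ± 0.26 (adjusted p = 0.28), 0.37 ± 0.32 (adjusted p = 0.42) and 0.58 ± 0.14 (adjusted p = 0.0078). Col12a1 in corrected over delEx44 was -0.69 ± 0.26 (adjusted p = 0.049), -0.71 ± 0.32 (adjusted p = 0.14) and -0.63 ± 0.14 (adjusted p = 0.0071). The 4-week call was lost without 4-week delEx44 library 1 or 2 or 4-week corrected library 1 or 2 or 3 (-0.73 to -0.53, adjusted p = 0.087 to 0.16).

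Col16a1, Col19a1, Col20a1 and Col22a1 are also fibril-associated types, and Col22a1 is known from the junction of muscle and tendon. Col16a1 at 4 weeks was at 44.9, 47.5 and 37.96 CPM in corrected, 78.1, 76.6 and 66.3 CPM in delEx44 and 43.02, 43.1 and 58.2 CPM in WT muscle. Col16a1 after the run had 14.8 and 21.2 CPM in corrected, 27.5 and 33.4 CPM in delEx44 and 16.1 and 19.7 CPM in WT muscle. Col16a1 at 18 months came to 8.11, 7.16 and 6.99 CPM in corrected, 14.04, 11.7 and 10.6 CPM in delEx44 and 9.697, 8.53 and 10.4 CPM in WT muscle. The delEx44 libraries exceeded all others at each stage. Col16a1 rose by 0.61 ± 0.16 (adjusted p = 0.0064), 0.77 ± 0.2 (adjusted p = 0.013) and 0.34 ± 0.13 (adjusted p = 0.044). Col16a1 in corrected over delEx44 was -0.76 ± 0.16 (adjusted p = 0.002), -0.76 ± 0.2 (adjusted p = 0.018) and -0.70 ± 0.13 (adjusted p = 0.0019). The rises were lost without run WT library 1 or run delEx44 library 2 (0.62 to 0.63, adjusted p = 0.092 to 0.094) after the run and without 18-month WT library unnumbered A or unnumbered B or 18-month delEx44 library 1 or 2 (0.22 to 0.37, adjusted p = 0.069 to 0.19) at 18 months, and the run fall without run delEx44 library 2 or run corrected library 1 (-0.60 to -0.52, adjusted p = 0.12 to 0.16). Col19a1 at 4 weeks measured 3.29, 4.66 and 3.92 CPM in corrected, 8.48, 7.22 and 5.83 CPM in delEx44 and 4.13, 2.78 and 3.21 CPM in WT muscle. Col19a1 after the run stood at 3.81 and 4.41 CPM in corrected, 5.88 and 5.18 CPM in delEx44 and 3.86 and 2.37 CPM in WT muscle. Col19a1 at 18 months reached 10.9, 5.28 and 7.85 CPM in corrected, 27.9, 24.1 and 21.3 CPM in delEx44 and 4.88, 5.68 and 5.82 CPM in WT muscle. The delEx44 libraries were highest at all stages, and at 18 months they stood well clear of both other groups. Col19a1 rose by 1.09 ± 0.21 (adjusted p = 0.00076), 0.83 ± 0.26 (adjusted p = 0.028) and 2.16 ± 0.23 (adjusted p = 8.3e-05). Col19a1 in corrected over delEx44 was -0.86 ± 0.2 (adjusted p = 0.0039), -0.43 ± 0.25 (adjusted p = 0.24) and -1.61 ± 0.22 (adjusted p = 0.00052). The run rise was lost without run WT library 2 or run delEx44 library 1 or 2 (0.52 to 0.92, adjusted p = 0.057 to 0.24). Col22a1 at 4 weeks was at 56.3, 59.3 and 54.03 CPM in corrected, 45.3, 75.3 and 59.5 CPM in delEx44 and 63.2, 56.7 and 80.3 CPM in WT muscle. Col22a1 after the run had 44.2 and 45.96 CPM in corrected, 39.6 and 39.4 CPM in delEx44 and 40.4 and 39.997 CPM in WT muscle. Col22a1 at 18 months came to 23.6, 29.8 and 14.98 CPM in corrected, 17.005, 14.7 and 15.1 CPM in delEx44 and 25.9, 23.4 and 25.6 CPM in WT muscle. The groups overlapped at 4 weeks, and at 18 months all delEx44 libraries were below WT while corrected library 3 lay among the delEx44 values. Col22a1 in delEx44 over WT was -0.15 ± 0.16 (adjusted p = 0.43), -0.026 ± 0.19 (adjusted p = 0.93) and -0.68 ± 0.21 (adjusted p = 0.022). The 18-month call was lost without 18-month WT library unnumbered A or 3 or 18-month delEx44 library 2 or 3 (-0.66 to -0.64, adjusted p = 0.06 to 0.069). Col20a1 fell in delEx44 over WT at all 3 stages, with -0.32 ± 0.1, -0.43 ± 0.12 and -0.56 ± 0.13, at levels of at most 9.15 CPM, and without a scaling factor the 4-week value turned to 0.075.

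Col7a1 forms the anchoring fibrils of skin, and Col28a1 is a beaded collagen known from peripheral nerve. Col7a1 at 4 weeks measured 13.4, 14.6 and 19.2 CPM in corrected, 12.3, 15.3 and 16.5 CPM in delEx44 and 21.9, 13.97 and 17.97 CPM in WT muscle. Col7a1 after the run stood at 53.5 and 40.7 CPM in corrected, 23.4 and 21.9 CPM in delEx44 and 43.1 and 41.9 CPM in WT muscle. Col7a1 at 18 months reached 18.6, 16.8 and 16.4 CPM in corrected, 11.1, 11.6 and 11.6 CPM in delEx44 and 21.9, 18.3 and 19.8 CPM in WT muscle. The groups overlapped at 4 weeks, and the delEx44 libraries were the lowest after the run and at 18 months. Col7a1 in delEx44 over WT was -0.29 ± 0.18 (adjusted p = 0.19), -0.91 ± 0.21 (adjusted p = 0.0083) and -0.81 ± 0.089 (adjusted p = 6.7e-05). Col7a1 in corrected over delEx44 was 0.096 ± 0.18 (adjusted p = 0.69), 1.05 ± 0.21 (adjusted p = 0.0051) and 0.60 ± 0.089 (adjusted p = 0.00059). The run calls were lost without run delEx44 library 2 (-0.86, adjusted p = 0.054) and without run corrected library 1 (0.84, adjusted p = 0.057). Col28a1 at 4 weeks was at 5.37, 4.28 and 4.88 CPM in corrected, 6.46, 5.77 and 5.42 CPM in delEx44 and 4.85, 5.42 and 4.16 CPM in WT muscle. Col28a1 after the run had 3.498 and 3.07 CPM in corrected, 7.17 and 5.703 CPM in delEx44 and 2.82 and 3.16 CPM in WT muscle. Col28a1 at 18 months came to 3.901, 6.36 and 4.46 CPM in corrected, 4.67, 4.25 and 4.79 CPM in delEx44 and 2.39, 2.52 and 3.08 CPM in WT muscle. The delEx44 libraries were highest after the run, and at 18 months corrected and delEx44 were both above WT. Col28a1 in delEx44 over WT was 0.29 ± 0.14 (adjusted p = 0.093), 1.10 ± 0.17 (adjusted p = 0.00063) and 0.79 ± 0.19 (adjusted p = 0.0067). Col28a1 in corrected over delEx44 was -0.28 ± 0.14 (adjusted p = 0.11), -0.97 ± 0.17 (adjusted p = 0.002) and 0.10 ± 0.19 (adjusted p = 0.7). Of the membrane-spanning types, Col23a1 rose in delEx44 over WT at every stage, by 0.54 ± 0.15, 0.77 ± 0.18 and 0.95 ± 0.15, and fell in corrected over delEx44 at 18 months with -1.13 ± 0.15 (adjusted p = 0.00028). Col25a1, a membrane collagen needed for motor nerves to reach muscle, had 0.0772, 0.32002 and 0.143 CPM in corrected, 2.04, 1.37 and 1.26 CPM in delEx44 and 0.326, 0.498 and 0.237 CPM in WT muscle at 18 months. It rose there in delEx44 over WT by 2.09 ± 0.4 (adjusted p = 0.0017) and fell in corrected over delEx44 with -3.10 ± 0.45 (adjusted p = 0.00051), but after the run it stood in delEx44 over WT at -1.56 ± 0.51 (adjusted p = 0.036), a call lost without run WT library 1 or 2 or run delEx44 library 2 (-1.70 to -1.09, adjusted p = 0.068 to 0.22). Col26a1 in corrected over delEx44 at 18 months was -1.85 ± 0.48 (adjusted p = 0.011), at levels of at most 0.480 CPM in all 9 libraries. Col13a1 lay between 0.798 and 4.67 CPM and was called in none of these comparisons. Col17a1 lay between 0.214 and 1.43 CPM and rose in delEx44 over WT at 4 weeks with 0.60 ± 0.22 (adjusted p = 0.038), a call lost without 4-week WT library 1 or 4-week delEx44 library 1 or 2 (0.43 to 0.57, adjusted p = 0.1 to 0.15).

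At 4 weeks 1 WT library stood apart in the collagens of cartilage. Col2a1 is the fibrillar collagen of cartilage, types IX and XI decorate its fibres, and Col10a1 belongs to cartilage that turns to bone. Col2a1 at 4 weeks was at 6.67, 7.46 and 4.45 CPM in corrected, 6.36, 8.196 and 4.56 CPM in delEx44 and 8.03, 6.75 and 181 CPM in WT muscle. Col2a1 after the run had 16.6 and 28.04 CPM in corrected, 14.02 and 7.59 CPM in delEx44 and 10.1 and 4.04 CPM in WT muscle. Col2a1 at 18 months came to 0.154, 0.16001 and 0.0357 CPM in corrected, 0.2096, 0.128 and 0.0333 CPM in delEx44 and 0.181, 0.0332 and 0.189 CPM in WT muscle. WT library 3 at 4 weeks stood far above all others. In that library Col9a1 had 11.7 CPM, Col9a2 5.15 CPM, Col9a3 5.74 CPM and Col10a1 9.91 CPM, while the other WT libraries of that age were under 1 CPM for each. The same library held the cartilage and bone genes Acan at 12.8 CPM, Hapln1 at 17.8 CPM and Ibsp at 54.6 CPM, and the neutrophil gene Ngp at 57.3 CPM. Falls in delEx44 over WT at 4 weeks were called for Col2a1 at -3.36 ± 1.1 (adjusted p = 0.034), Col9a1 at -3.89 ± 1 (adjusted p = 0.0092), Col9a2 at -2.87 ± 0.77 (adjusted p = 0.0089) and Col9a3 at -2.79 ± 0.94 (adjusted p = 0.028). Without that library Col2a1 gave -0.21 (adjusted p = 0.72), Col9a2 -1.08 (adjusted p = 0.053) and Col9a3 -0.047 (adjusted p = 0.94), and Col9a1 gave -1.26 (adjusted p = 0.018). Col2a1 and Col9a3 were also lost without any one delEx44 library of that age. Of the merged exons of Col9a3, 6.07% overlap Tcfl5 on the opposite strand.

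Col11a1 at 4 weeks measured 42.4, 46.4 and 33.6 CPM in corrected, 46.4, 64.6 and 45.03 CPM in delEx44 and 50.6, 51.8 and 108 CPM in WT muscle. Col11a1 after the run stood at 8.16 and 16.1 CPM in corrected, 13.3 and 15.3 CPM in delEx44 and 8.42 and 11.04 CPM in WT muscle. Col11a1 at 18 months reached 5.91, 6.0005 and 2.53 CPM in corrected, 6.92, 6.87 and 6.22 CPM in delEx44 and 4.78, 5.35 and 5.68 CPM in WT muscle. Col11a1 stood highest in WT library 3 at 4 weeks, overlapped between delEx44 and corrected after the run, and was highest in delEx44 at 18 months. In delEx44 over WT it was -0.43 ± 0.32 (adjusted p = 0.29), 0.56 ± 0.42 (adjusted p = 0.36) and 0.34 ± 0.26 (adjusted p = 0.3), none of which passed. Col11a2 at 4 weeks measured 34.1, 36.8 and 27.8 CPM in corrected, 29.7, 39.7 and 24.1 CPM in delEx44 and 41.98, 36.1 and 88.02 CPM in WT muscle. Col11a2 after the run stood at 15.6 and 20.9 CPM in corrected, 12.2 and 12.02 CPM in delEx44 and 15.8 and 11.8 CPM in WT muscle. Col11a2 at 18 months reached 2.94, 4.28 and 3.14 CPM in corrected, 2.72, 2.49 and 2.63 CPM in delEx44 and 4.23, 5.01 and 4.78 CPM in WT muscle. WT library 3 was the highest at 4 weeks, after the run delEx44 was below corrected while WT overlapped both, and at 18 months the delEx44 libraries were the lowest. Col11a2 in delEx44 over WT was -0.83 ± 0.31 (adjusted p = 0.048), -0.19 ± 0.41 (adjusted p = 0.76) and -0.84 ± 0.17 (adjusted p = 0.002), and the 4-week call was lost without 4-week WT library 3 or 4-week delEx44 library 1 or 3 (-0.79 to -0.32, adjusted p = 0.13 to 0.22). At 18 months Col9a1 fell in delEx44 over WT with -2.98 ± 0.77 (adjusted p = 0.0082). This call rests on 1, 2 and 2 reads in delEx44 and 16, 15 and 5 reads in WT muscle. Col10a1 rose at that age. Col10a1 had 0.193, 0.24002 and 0.107 CPM in corrected, 1.68, 1.05 and 0.665 CPM in delEx44 and 0.0362, 0 and 0 CPM in WT muscle. Its 3 delEx44 libraries held 109 reads in all and its 3 WT libraries 1 read, a ratio of 90.7 with a 95% interval of 15.9 to 3.62e+03 that covers counting error only; the adjusted p was 0.00015. Corrected over delEx44 was -2.65 ± 0.5 (adjusted p = 0.0021) for Col10a1 at 18 months.

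**Figure D5:**
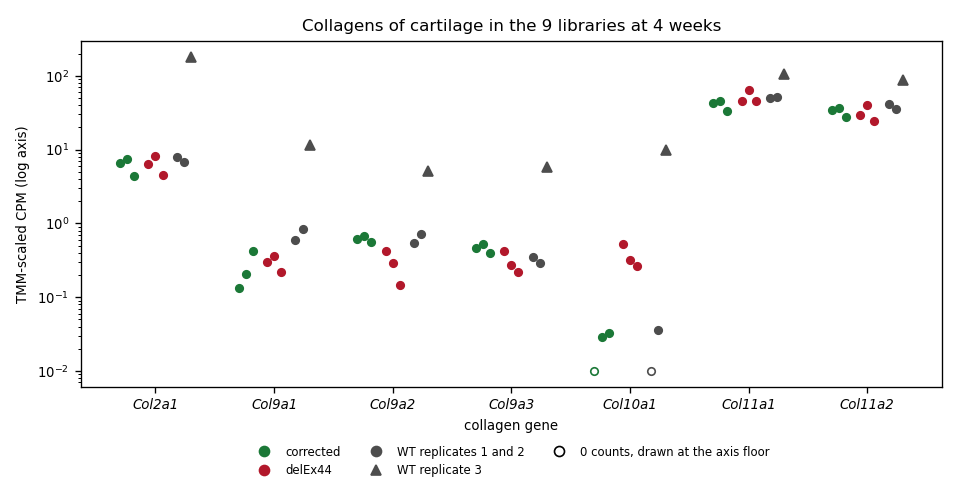
TMM-scaled CPM (vertical axis, log scale) of 7 cartilage collagens (horizontal axis) in the 9 libraries at 4 weeks, with corrected, delEx44 and WT side by side and open points for libraries with 0 counts. WT library 3, drawn as triangles, holds 181 CPM of Col2a1, against 8.03 and 6.75 CPM in the other WT libraries of that age.

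The step from 4 weeks sedentary to 8 weeks with running was compared within each genotype. Collagens mostly fell: 2 rose and 23 fell among 43 in corrected muscle (25.8% of all genes called), 5 rose and 24 fell in delEx44 muscle (35.7% of all genes), and 2 rose and 27 fell in WT muscle (27.6% of all genes). The rises were few and moved with single libraries: in corrected muscle 1 was left without any one of its 5 libraries, in delEx44 muscle 2 without 4-week library 1 or run library 2 and 3 without run library 1, and in WT muscle 4 without 4-week library 3 and 1 without run library 2. Median log2 changes over the collagens were -0.71 in corrected, -0.58 in delEx44 and -1.14 in WT muscle, beside -0.0060, -0.036 and 0 over all genes. Fibrillar members had the lowest medians, at -1.24, -1.09 and -1.96 in corrected, delEx44 and WT muscle, against -0.69, -0.38 and -0.79 for basement membrane members. Col3a1 fell in all genotypes, with -1.78 ± 0.17 in corrected, -1.37 ± 0.16 in delEx44 and -1.96 ± 0.17 in WT muscle. Col1a1 stood at -1.54 ± 0.25 in corrected, -1.35 ± 0.24 in delEx44 and -2.10 ± 0.25 in WT muscle, and Col26a1, a collagen of developing gonads, at -1.79 ± 0.17, -1.38 ± 0.16 and -2.20 ± 0.17. The WT medians and changes use 4-week WT library 3, which carried cartilage and bone marker RNA. That library was the highest of its stage for Col1a1, Col1a2, Col2a1, Col11a1 and Col11a2. Its part in the larger WT falls was not tested. Col7a1 rose in each genotype, with 1.58 ± 0.19 (adjusted p = 0.00029) in corrected, 0.63 ± 0.19 (adjusted p = 0.026) in delEx44 and 1.24 ± 0.19 (adjusted p = 0.00083) in WT muscle. Col4a3 rose in delEx44 muscle with 0.91 ± 0.18 (adjusted p = 0.0019) and stood at -0.13 ± 0.17 (adjusted p = 0.6) in corrected and -0.16 ± 0.17 (adjusted p = 0.53) in WT muscle. Running and age cannot be told apart here. The run libraries also held more red cell, neutrophil and Ibsp RNA than the 4-week libraries other than WT library 3. The part of such carried-along tissue in these changes was not tested.

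Whether genotype differences changed between stages was tested as an interaction. The delEx44 over WT difference was larger after the run than at 4 weeks for 1 collagen, Col6a5, by 1.31 ± 0.26 (adjusted p = 0.037), beside 0.879% of all genes (0.586% higher). This call was lost without any one of 8 libraries, with adjusted p = 0.058 to 0.14. In the corrected over delEx44 difference between run and 4 weeks, edgeR called 0 collagens (1.42% of all genes, 1.01% lower), with 10 at an unadjusted p under 0.05 and 5 called by DESeq2. The comparison of 18 months with 4 weeks joins both count tables, so age and table coincide in it. There the delEx44 over WT difference was larger for 7 collagens and smaller for 1 (10.9% of all genes, 7.02% higher and 3.91% lower). Type I collagen was among the 7, with Col1a1 at 1.05 ± 0.24 (adjusted p = 0.0091) and Col1a2 at 1.13 ± 0.23 (adjusted p = 0.0056). Both values use WT library 3 at 4 weeks, which was the highest of its stage for both chains and carried cartilage and bone marker RNA. Col14a1 stood at 0.86 ± 0.19 (adjusted p = 0.0084), Col4a5 at 0.80 ± 0.15 (adjusted p = 0.0022) and Col19a1 at 1.06 ± 0.31 (adjusted p = 0.04), whereas Col24a1 was at -1.78 ± 0.26 (adjusted p = 0.00056). The Col19a1 call was lost without any one of 9 libraries (0.88 to 1.11, adjusted p = 0.061 to 0.11). For corrected over delEx44 between the same ages 1 collagen was higher and 8 lower (15.9% of all genes, 7.75% higher and 8.12% lower). Col24a1 was at 1.26 ± 0.27 (adjusted p = 0.0058), Col14a1 at -0.85 ± 0.19 (adjusted p = 0.0077), Col23a1 at -0.86 ± 0.2 (adjusted p = 0.0094) and Col4a3 at -0.83 ± 0.23 (adjusted p = 0.023). The Col4a3 call was lost without 4-week delEx44 library 1 or 3 or 18-month delEx44 library 1 or 18-month corrected library 3 (-0.78 to -0.71, adjusted p = 0.051 to 0.063). The first of these age splits became 4 higher and 1 lower without 18-month delEx44 library 1 and 5 and 2 without 4-week WT library 1 or 3. The second became 1 and 5 without 4-week delEx44 library 1 or 3, 2 and 9 without 4-week corrected library 3, 2 and 5 without 18-month delEx44 library 1, 3 and 5 without 18-month corrected library 3 and 1 and 14 without 18-month corrected library 1. Without a scaling factor the splits became 1 higher and 1 lower, 1 and 0, 6 and 2, and 1 and 6 for the 4 interactions in this order.

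A list of 53 genes that fold, modify, process, cross-link, secrete and bind collagen was counted in the same comparisons. Of these 51 were tested, and in delEx44 over WT 23 rose and 7 fell at 4 weeks, 30 rose and 1 fell after the run, and 34 rose and 5 fell at 18 months. These calls were 58.8%, 60.8% and 76.5% of the list at the 3 stages, beside 50.2%, 29.1% and 52.7% of all genes. In corrected over delEx44 6 rose and 22 fell at 4 weeks, 0 rose and 24 fell after the run, and 4 rose and 32 fell at 18 months, or 54.9%, 47.1% and 70.6% of the list beside 46.3%, 23.2% and 41% of all genes. At 4 weeks the shares of the list were near those of all genes in both comparisons. Median log2 changes over the list in delEx44 over WT were 0.24, 0.43 and 0.60, beside the medians over all genes given above, and in corrected over WT edgeR called 0 of 51 at each stage, with 9, 4 and 11 at an unadjusted p under 0.05 and 1, 0 and 4 called by DESeq2. Lair1, an inhibitory collagen receptor of immune cells, averaged 14.1 CPM in delEx44 and 1.81 CPM in WT muscle (log2 change 2.96 ± 0.2, adjusted p = 7e-07) at 4 weeks and 6.61 CPM in delEx44 and 1.42 CPM in WT muscle (log2 change 2.21 ± 0.25, adjusted p = 8.2e-05) after the run. Ppib, a helper of collagen folding, averaged 128 CPM in delEx44 and 72.5 CPM in WT muscle (log2 change 0.81 ± 0.09, adjusted p = 1.2e-05) at 4 weeks. P4ha3, a prolyl hydroxylase chain, averaged 5.61 CPM in delEx44 and 0.735 CPM in WT muscle (log2 change 2.91 ± 0.35, adjusted p = 2.7e-05), and Loxl1, a cross-linking oxidase, 103 CPM in delEx44 and 52.7 CPM in WT muscle (log2 change 0.96 ± 0.13, adjusted p = 5.5e-05) at 4 weeks. Fap, a fibroblast protease, averaged 31.9 CPM in delEx44 and 17.4 CPM in WT muscle (log2 change 0.87 ± 0.13, adjusted p = 0.00034) after the run, Ddr2, a collagen receptor kinase, 79.3 CPM in delEx44 and 53.9 CPM in WT muscle (log2 change 0.56 ± 0.081, adjusted p = 0.00036), and Nid1, the linker of laminin and type IV collagen, 313 CPM in delEx44 and 202 CPM in WT muscle (log2 change 0.63 ± 0.099, adjusted p = 6e-04). At 18 months Serpinh1, the collagen chaperone HSP47, averaged 168 CPM in delEx44 and 80.5 CPM in WT muscle (log2 change 1.06 ± 0.079, adjusted p = 9.3e-06). Sec24d, a coat protein of the vesicles that carry procollagen, averaged 33.5 CPM in delEx44 and 19.1 CPM in WT muscle (log2 change 0.81 ± 0.072, adjusted p = 2.2e-05), Leprel1, a prolyl hydroxylase, 13.3 CPM in delEx44 and 5.27 CPM in WT muscle (log2 change 1.33 ± 0.15, adjusted p = 6.6e-05), and Plod2, a lysyl hydroxylase, 24.2 CPM in delEx44 and 10.9 CPM in WT muscle (log2 change 1.16 ± 0.13, adjusted p = 8.3e-05).

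In corrected over delEx44 the genes with the smallest p of the list all fell. Lair1 averaged 3.92 CPM in corrected and 14.1 CPM in delEx44 muscle (log2 change -1.84 ± 0.19, adjusted p = 1.2e-05), Ppib 72.2 CPM in corrected and 128 CPM in delEx44 muscle (log2 change -0.82 ± 0.09, adjusted p = 1.9e-05), P4ha3 0.628 CPM in corrected and 5.61 CPM in delEx44 muscle (log2 change -3.14 ± 0.36, adjusted p = 2.7e-05) and Fap 37.3 CPM in corrected and 58.3 CPM in delEx44 muscle (log2 change -0.65 ± 0.099, adjusted p = 2e-04) at 4 weeks. After the run Lair1 averaged 1.73 CPM in corrected and 6.61 CPM in delEx44 muscle (log2 change -1.93 ± 0.25, adjusted p = 0.00036), Nid1 206 CPM in corrected and 313 CPM in delEx44 muscle (log2 change -0.60 ± 0.099, adjusted p = 0.0013), Sec24d 17.2 CPM in corrected and 31.7 CPM in delEx44 muscle (log2 change -0.88 ± 0.14, adjusted p = 0.0013) and P4ha3 0.361 CPM in corrected and 2.396 CPM in delEx44 muscle (log2 change -2.71 ± 0.48, adjusted p = 0.002). At 18 months Serpinh1 averaged 81.8 CPM in corrected and 168 CPM in delEx44 muscle (log2 change -1.04 ± 0.078, adjusted p = 1.8e-05), the uptake receptor Mrc2 15.3 CPM in corrected and 29.8 CPM in delEx44 muscle (log2 change -0.96 ± 0.085, adjusted p = 3.8e-05), Sec24d 19.9 CPM in corrected and 33.5 CPM in delEx44 muscle (log2 change -0.75 ± 0.072, adjusted p = 5.4e-05) and Leprel1 5.46 CPM in corrected and 13.3 CPM in delEx44 muscle (log2 change -1.28 ± 0.15, adjusted p = 0.00013).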

How the data were processed

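Polyadenylated RNA of flash-frozen quadriceps was sequenced after miRNeasy extraction and TruSeq library preparation, per the labels' protocols. The authors deposited 2 tables of raw read counts per gene symbol, 1 for the 15 libraries at 4 weeks and after the run and 1 for the 9 libraries at 18 months. The submitters' processing notes name STAR 2.7.2b, HTSeq, Trim Galore, SAMtools 1.9, Bowtie2 2.3.4.3 and edgeR, and the build mm10, with no role or order. The strand setting of the counting was not stated. Records that name no gene held 27.4 to 34.2% of all counts in the first table and 42.2 to 48.3% in the second and were left out of library sizes and tests. No column of another sample was present. Members and lists were chosen with earlier results of these data known.

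Counts were fitted with edgeR 4.0.16 in R 4.3.3 (TMM scaling, filterByExpr, robust quasi-likelihood F-test, Benjamini-Hochberg adjustment over all genes, threshold 0.05), with 1 fit for each table and 1 over the 18 sedentary libraries for the age interactions. The fits tested 15013, 14337 and 14937 genes and 43, 41 and 43 collagens. Col6a4 passed the filter on low counts in none of them, and Col2a1 and Col9a3 did not pass at 18 months. Values were printed in every library for members with a group mean of at least 20 CPM and for the called member with the smallest p in each class and genotype comparison. Other members were named where called by at least 1 log2 unit, and up to 4 genes of the synthesis and receptor list per genotype comparison. Col13a1, Col17a1, Col20a1, Col4a6, Col8a2 and Col6a4 were named beyond this rule after their values were seen.

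The fits were tested on simulated counts. Alternatives were RLE scaling, no filter, DESeq2 1.42.0, fits of only the groups compared, leaving out each library, and, chosen after seeing the data, total counts with no scaling factor. Exon lengths and coordinates came from GENCODE vM21 on GRCm38 and promoters from RefSeq. A 95% interval on a ratio of read counts is exact and covers counting error only.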

Additional observations from a re-analysis of the deposited data

Results flagged for a closer look

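Several genotype differences changed between stages by the interaction test of edgeR, and these are listed with the log2 size of the change. After the run, against 4 weeks, the delEx44 over WT difference of Col6a5 was larger by 1.31. At 18 months, against 4 weeks, the delEx44 over WT difference was larger by 1.05 for Col1a1, 1.13 for Col1a2, 0.86 for Col14a1, 1.06 for Col19a1, 0.80 for Col4a5 and 2.40 for Col25a1, and that of Col24a1 changed by -1.78. Col10a1 changed by 9.23, a fitted value that depends on the prior count and on WT library 3 at 4 weeks, and without that library it was 1.88 (adjusted p = 0.66). That library was also the highest of its stage for Col1a1 and Col1a2. The corrected over delEx44 difference between the same ages changed by -0.85 for Col14a1, -0.75 for Col1a2, -0.86 for Col23a1, -3.45 for Col25a1, -1.52 for Col26a1, -0.83 for Col4a3, -0.70 for Col4a5 and -0.48 for Col5a1, and by 1.26 for Col24a1. Age, count table and, in corrected mice, vector dose cannot be told apart in these ages.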

How the results depend on the processing

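Most counts of collagens called stayed within 1.5 times of the reported ones. On total counts with no scaling factor, chosen after seeing the data, corrected over delEx44 at 4 weeks called 31 against 19, and the run interactions called 2 against 1 for delEx44 over WT and 1 against 0 for corrected over delEx44. DESeq2 called 1 against 0 in corrected over WT at 4 weeks, 5 against 3 in corrected over WT at 18 months, and 6 and 5 in the run interactions of delEx44 over WT and corrected over delEx44. Fits of only the groups compared called 7 against 20 in corrected over delEx44 after the run and 0 against 3 in corrected over WT at 18 months. With 1 library left out, delEx44 over WT called 18 to 23 at 4 weeks, 16 to 22 after the run and 27 to 29 at 18 months. Corrected over delEx44 called 15 to 22 at 4 weeks, 8 to 24 after the run (8 without corrected library 1, 11 without delEx44 library 2) and 24 to 27 at 18 months, and corrected over WT 0 at 4 weeks and after the run and 0 to 9 at 18 months (0 without any one WT library, 9 without corrected library 2). Run over 4 weeks called 21 to 25 in corrected, 19 to 29 in delEx44 (19 without run library 1) and 24 to 30 in WT muscle. The interactions called 0 to 3 in each run contrast, and at 18 months 5 to 8 for delEx44 over WT (5 without delEx44 library 1 of 18 months) and 6 to 15 for corrected over delEx44 (15 without corrected library 1 of 18 months). Where 1 library was left out of a run group, the lone library was assumed to vary like the other groups. In the replicate block fit of corrected over delEx44 at 18 months 23 collagens were called against 26; same-numbered libraries correlated at -0.066, 0.049 and -0.053, so the numbers did not pair them, and the columns of the other comparisons carry too few shared numbers for such a fit. Of 2088 alternative values for 189 named gene results, 1847 kept direction and side of the threshold, 240 kept the direction only, and 1 turned: Col20a1 in delEx44 over WT at 4 weeks, to 0.075 with no scaling factor. Causes were not tested. Members under 1 CPM rest on few reads, which limits their precision.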
